A study of Mus musculus with 6 samples.

Results

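The co-stimulatory receptors Cd28, Icos and Cd226 and the ligands Cd80, Cd86, Cd40lg, Tnfsf8 and Tnfsf14 were examined in splenic CD4+CD25+Nrp1+ regulatory T cells (Tregs). These 8 genes were chosen by an exact match of their symbols in the platform annotation of the array, out of 30176 gene symbols with a transcript cluster of their own. Each gene was represented by 1 cluster, the set of probes that the array pools into 1 value, and no cluster of the 8 was shared with another symbol. RNA was measured on 6 arrays, each from another untreated male mouse of the B6 strain aged 10 to 12 weeks, 3 labelled CREB-KO and 3 labelled CREB-WT. CREB-KO mice carry floxed alleles of CREB together with a Cre recombinase that is made from the Foxp3 locus, so that the deletion is meant for Foxp3+ cells. The labels call the control mice WT, and the methods describe them as floxed mice that lack the Cre, so floxed alleles were shared by both groups according to the methods and the Cre was carried by CREB-KO mice alone. An effect of the Cre allele and an effect of CREB loss cannot be told apart in this design. The arrays were run for a transcriptome-wide view of Tregs without CREB, and the comparison below asks which co-stimulatory genes differed between the genotypes.

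T cells need a signal through co-stimulatory receptors in addition to the one through the T cell receptor. CD28 gives this signal when it binds CD80 or CD86, the B7 ligands of antigen-presenting cells, and it is required for the development and upkeep of Tregs. CTLA-4, abundant on Tregs, competes for the same ligands and removes them from the surface of other cells. ICOS is a relative of CD28 with a ligand of its own and marks effector Tregs. CD226 binds the nectin family proteins encoded by Pvr and Nectin2, for which the inhibitory receptors TIGIT and CD96 compete. The ligands of the tumour necrosis factor (TNF) family are carried by activated T cells: CD40 ligand acts on CD40 of B cells and dendritic cells, the product of Tnfsf8 (CD30 ligand) on CD30, and the product of Tnfsf14 (LIGHT) on HVEM and the lymphotoxin beta receptor.

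The deposited table held 65956 clusters, with array medians of 4.48 to 4.58 on the log2 scale and correlations between arrays of 0.980 to 0.988. Creb1, the targeted gene, was 14.10, 14.39 and 14.79 on the CREB-KO arrays and 13.30, 13.94 and 13.34 on the CREB-WT arrays, so its signal was higher where the label says it was deleted. No source used here says where its probes lie relative to the deleted part, so this cluster checks nothing about the labels, and all directions are those between the arrays as labelled. Of 16 markers of CD4 T cells and Tregs, 12 had a cluster of their own, and all of these lay above the median cluster, among them Cd3e at 17.15 and 17.16, Cd4 at 13.68 and 13.72 and Il2ra, which encodes CD25, at 14.66 and 15.11 (means of CREB-KO and CREB-WT). Foxp3 and Nrp1 lie on clusters shared with other symbols and are not analysed here. Macrophage and monocyte markers stood apart most between arrays: their mean over 19 genes, relative to each gene's mean, spanned -1.35 to 0.60 on CREB-KO arrays and -0.43 to 1.17 on CREB-WT arrays.

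All members past the thresholds used here were ligands. Cd40lg, Tnfsf8 and Tnfsf14 were higher on the CREB-KO arrays by 1.80-fold, 2.06-fold and 1.80-fold, and Cd80 was lower by 1.79-fold. These 4 genes were past the thresholds that the study's methods use to call a transcript regulated, a fold of 1.5 (0.58 on the log2 scale) with an unadjusted p of 0.05, here from limma. Among all 65956 clusters, 1.62% were past these study thresholds in the higher direction and 0.728% in the lower direction, 2.35% in all (2.55% of the 17036 clusters with 1 symbol above the median level). Cd86, Cd226, Cd28 and Icos were not past them. With the p of the methods' t-test in place of limma, Cd80 alone was past them (unadjusted p 0.0251). Cd40lg, Tnfsf8 and Tnfsf14 were then not (unadjusted p 0.0562, 0.0791 and 0.115). The 8 genes were picked with results of these arrays in view, so their share is a description and no independent evidence. No member passed after adjustment over all clusters: the adjusted p ran from 0.787 for Cd80 to 0.970 for Cd28, and 0 of 65956 clusters had an adjusted p under 0.05 (the methods' t-test also gave 0 after adjustment). An unadjusted p under 0.05 was found for 5 of the members, and for 3689 or 5.59% of all clusters. Values of bulk cells cannot tell fewer cells that carry an RNA from less RNA per cell.

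**Figure D1:**
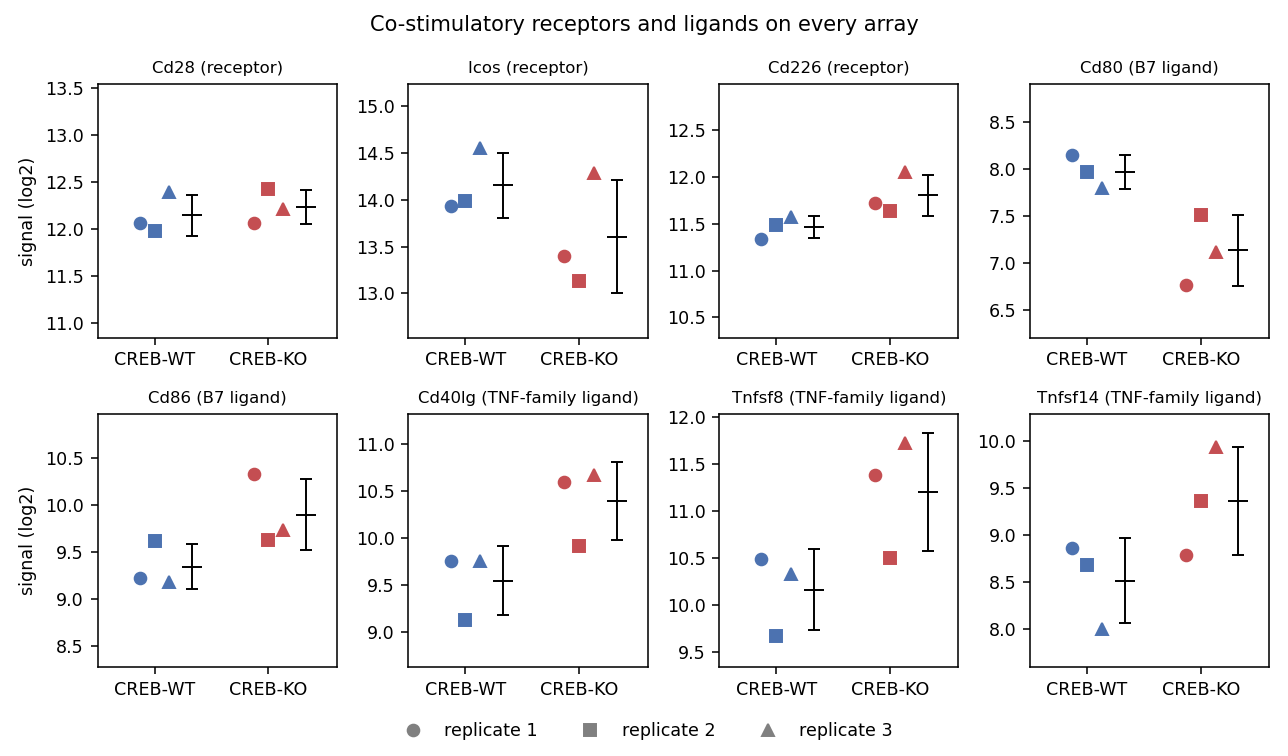
Signal (log2, y axis) of the 8 genes on each of the 3 CREB-WT and 3 CREB-KO arrays (x axis); each symbol is 1 array, with the replicate given by its shape, and the bar is the group mean with its SD. Every panel spans the same range of log2 units; the CREB-KO arrays sit above all CREB-WT arrays for Cd226, Cd86, Cd40lg and Tnfsf8 and below them for Cd80.

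All 8 clusters lay well above the middle of the table, from percentile 80.7 of the cluster means for Cd80 to 97.3 for Icos. In the order of these percentiles Icos was followed by Cd28 (95.5), Cd226 (94.4), Tnfsf8 (92.5), Cd40lg (90.7), Cd86 (89.8), Tnfsf14 (87.3) and Cd80 (80.7). Different clusters have different probes, so this order describes signals on the array and not amounts of RNA. The groups did not overlap for 5 genes, 4 with CREB-KO above and 1 with CREB-KO below, where 7.87% and 3.29% of all clusters did so (11.2% together). Of the 8 differences 6 lay above 0, against 60.4% of all clusters, and their median was 0.45 on the log2 scale, against 0.05 over all clusters.

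Among the receptors, none was past the study thresholds. Cd28 was 12.07, 12.43 and 12.21 on the CREB-KO arrays and 12.07, 11.98 and 12.39 on the CREB-WT arrays. The groups overlapped throughout, and the difference was 0.09 ± 0.16 (SE; 95% interval -0.31 to 0.49), and limma gave an unadjusted p of 0.599 (adjusted p 0.970). The upper end of the interval lay below the fold that the study called regulated.

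Icos was 13.40, 13.13 and 14.28 on the CREB-KO arrays and 13.93, 13.98 and 14.55 on the CREB-WT arrays. CREB-KO replicates 1 and 2 lay below every CREB-WT array, whereas CREB-KO replicate 3 lay between CREB-WT replicates 2 and 3. The difference was -0.55 ± 0.33 (95% interval -1.35 to 0.26; unadjusted p 0.148, adjusted p 0.913 in limma), short of both limits. Without CREB-KO replicate 3 the difference was -0.89 and past the study thresholds (unadjusted limma p 0.0126, adjusted p 0.848). Icos was highest in replicate 3 of both genotypes. Without both arrays numbered 3 the difference was -0.69 (unadjusted limma p 0.0151, adjusted p 0.937). CREB-KO replicate 3 also held the lowest level of macrophage markers. With the macrophage marker level of each array as a covariate, the difference was -0.90 (unadjusted limma p 0.0271, adjusted p 0.825). The last 2 alternatives were chosen after seeing the data. What these array features have to do with Icos was not tested.

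Cd226 was 11.72, 11.64 and 12.05 on the CREB-KO arrays and 11.34, 11.48 and 11.57 on the CREB-WT arrays. The genotypes thus separated, by a margin much smaller than a doubling. The difference of 0.34 ± 0.15 (95% interval -0.03 to 0.70; 1.26-fold) reached an unadjusted p of 0.0641 in limma (adjusted p 0.903). An exact two-sided permutation test of 3 against 3 arrays gave p = 0.1, which is the smallest value that it can give in this design.

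Of the B7 ligands, Cd80 was lower at the study thresholds and Cd86 did not pass them. Cd80 was 6.76, 7.51 and 7.12 on the CREB-KO arrays and 8.15, 7.96 and 7.79 on the CREB-WT arrays. Every CREB-KO array lay below every CREB-WT array, and the closest were CREB-KO replicate 2 and CREB-WT replicate 3. The difference was -0.84 ± 0.22 (95% interval -1.36 to -0.32), for which limma gave an unadjusted p of 0.00723 (rank 605 of 65956 clusters; adjusted p 0.787). It stayed past the study thresholds on leaving out each array in turn, at -1.03 to -0.65.

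Cd86 was 10.33, 9.63 and 9.73 on the CREB-KO arrays and 9.23, 9.62 and 9.18 on the CREB-WT arrays. CREB-KO replicate 1 stood highest, and CREB-KO replicate 2 and CREB-WT replicate 2 were only just apart. The difference of 0.56 ± 0.23 (95% interval 0.003 to 1.11; unadjusted p 0.049, adjusted p 0.894 in limma) was just short of the fold limit, at 1.47-fold. It was 0.69 and past the study thresholds when the second array of either genotype was dropped, and 0.34 when the first CREB-KO array was.

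Within each array the gap between the Cd86 and Cd80 signals was 3.57, 2.12 and 2.62 on the CREB-KO arrays and 1.08, 1.66 and 1.39 on the CREB-WT arrays. It was therefore wider on all 3 CREB-KO arrays, with means of 2.77 ± 0.74 (SD, n = 3) and 1.38 ± 0.29, a difference of 1.39 ± 0.46 (SE) that speaks of unequal change and not of either gene alone. The separation of the groups follows from the single values, in which both genes had separated in opposite directions. An exact permutation test of this gap (p = 0.1, the smallest possible here) therefore adds no evidence. For another pair, Icos minus Cd28, the gap was smaller on the CREB-KO arrays by 0.64 ± 0.40 with overlapping groups (exact permutation p = 0.3). These gaps were computed after the single values had been seen.

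B cells, macrophages and dendritic cells also carry the B7 ligands, and their markers were therefore set beside Cd80 and Cd86. Of 17 measured B cell markers 13 lay below 0, and their mean relative to each gene's mean ran from -0.18 to -0.07 on the CREB-KO and from -0.03 to 0.22 on the CREB-WT arrays, without overlap, in the direction of Cd80 and against that of Cd86. Cd72, a B cell surface receptor, was lower at the study thresholds by a difference of -1.52 ± 0.42 (9.16, 7.98 and 7.54 in CREB-WT, 6.78, 6.35 and 6.98 on the CREB-KO arrays). Cd79b, a subunit of the B cell receptor and the highest of the list at 10.12 over all arrays, differed by -0.06 ± 0.48. Its partner Cd79a (6.71) and the transcription factor gene Spib (4.90) differed by -0.51 ± 0.19 and -0.41 ± 0.16 with CREB-KO below CREB-WT on every array, short of the fold limit (unadjusted limma p 0.0359 and 0.0367). Ms4a1 (5.16), Pax5 (4.85) and Ebf1 (3.77) differed by -0.54 ± 0.39, -0.09 ± 0.16 and -0.001 ± 0.11. The 4 markers above 0 were Pou2af1 (0.38 ± 0.36, at 6.27), Cd22 (0.13 ± 0.15), Blk (0.08 ± 0.12) and Fcrla (0.04 ± 0.12). Cd79a, Spib, Ms4a1, Pax5, Ebf1 and these 4 were singled out after their values were seen. With the B cell marker level as a covariate, chosen after seeing the data, the difference of Cd80 was -0.76 ± 0.40. The call of Cd80 ended there (unadjusted limma p 0.116) mainly through a wider SE, as the difference without the covariate was -0.84 ± 0.22. The B cell marker level did not overlap between the genotypes, so its effect cannot be told apart from that of genotype, for Cd80 or other genes. With the macrophage marker level as the covariate, the difference of Cd80 was -0.87 ± 0.27 and its call held (unadjusted limma p 0.0205). Of 19 macrophage and monocyte markers 17 lay below 0 with 0 past the study thresholds, and of 11 dendritic cell markers 8 lay below 0 with 1, the integrin gene Itgax, past them (-0.59 ± 0.23; CREB-KO 5.04 to 5.43, CREB-WT 5.45 to 6.27). The call of Itgax held only without CREB-WT replicate 3 (-0.79) when arrays were left out in turn, and was lost without any other (-0.66 to -0.38), and with the B cell marker level as a covariate its sign turned, at 0.15. The highest markers of these lists were Hmox1 at 11.35 over all arrays (-2.07 ± 1.402), which encodes a heme-degrading enzyme, and Bst2 at 11.36 (0.06 ± 0.36). What part these cells have in the values of Cd80 and Cd86 was not tested further.

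**Figure D2:**
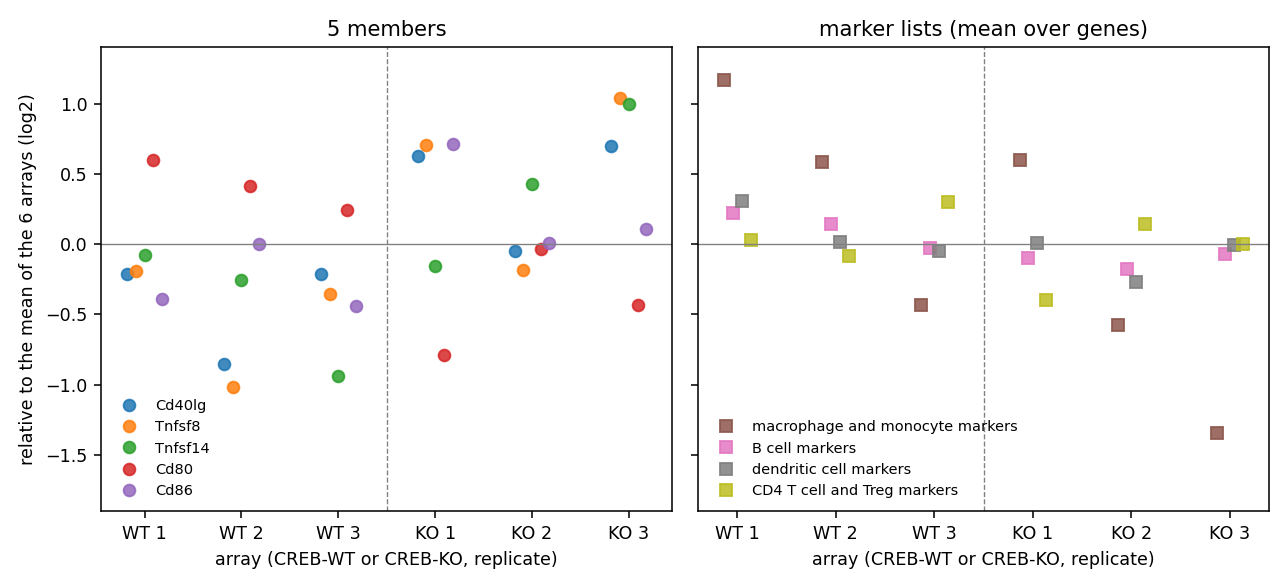
Left, signals of 5 of the genes on each array relative to the mean of the 6 arrays (log2, y axis), with the CREB-WT arrays to the left and the CREB-KO arrays to the right of the dashed line; right, the mean of 4 marker lists on the same scale. Cd40lg and Tnfsf8 have their lowest value of each genotype in replicate 2, and the macrophage list ranges from 1.17 to -1.35 with overlapping groups.

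Because CREB binds the cAMP response element (CRE), the RefSeq promoters of the members (GRCm38.p6, 250 bases before to 50 bases after the start site) were read for it. Promoters of 3 of the 8 genes were in the sequence table, and all of them belong to genes past the study thresholds: Cd80 (chr16:38458683-38458982, plus strand), Tnfsf8 (chr4:63861235-63861534, minus strand) and Tnfsf14 (chr17:57194132-57194431, minus strand). They are printed 5′ to 3′ on the strand of the gene, with capitals for each match to the letters of the CRE, its TGACG core or an AP-1 site.
Cd80: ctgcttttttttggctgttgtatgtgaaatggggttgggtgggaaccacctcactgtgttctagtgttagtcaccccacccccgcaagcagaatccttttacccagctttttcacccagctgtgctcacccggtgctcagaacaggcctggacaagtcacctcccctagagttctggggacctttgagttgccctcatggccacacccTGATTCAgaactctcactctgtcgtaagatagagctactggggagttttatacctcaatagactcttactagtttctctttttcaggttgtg
Tnfsf8: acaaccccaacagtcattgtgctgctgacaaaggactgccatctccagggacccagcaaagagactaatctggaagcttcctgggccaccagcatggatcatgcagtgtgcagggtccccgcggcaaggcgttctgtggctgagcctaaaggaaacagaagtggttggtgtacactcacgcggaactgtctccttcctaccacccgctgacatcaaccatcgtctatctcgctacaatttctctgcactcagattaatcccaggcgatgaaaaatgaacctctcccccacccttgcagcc
Tnfsf14: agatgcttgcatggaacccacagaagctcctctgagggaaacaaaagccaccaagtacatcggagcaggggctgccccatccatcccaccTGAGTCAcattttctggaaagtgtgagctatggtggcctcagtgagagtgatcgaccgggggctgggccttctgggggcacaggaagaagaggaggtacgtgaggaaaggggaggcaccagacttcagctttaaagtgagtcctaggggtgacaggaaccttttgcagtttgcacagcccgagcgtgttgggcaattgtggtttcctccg
The CRE (TGACGTCA) was in 0 of these 3 windows and in 1.79% of the 32851 promoters of the table, and its core (TGACG or, on the other strand, CGTCA) was in 0 of 3 and in 20.8%. Letters matching a loose AP-1 pattern (TGANTCA with any base at N, the same on both strands and with no overlap with the CRE letters) were found in 2 windows. These were TGATTCA in Cd80, at position -42 from the start site, and TGAGTCA in Tnfsf14, at position -160. Of all promoters, 7.81% held 1 or more matches to this pattern. The NFAT core (GGAAA or TTTCC), present in 61.3% of all promoters, was found 1 time in Tnfsf8, 4 times in Tnfsf14 and not in Cd80. A match describes the letters of the window, not a bound site, and a window without a match leaves the rest of the locus unread.

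The 3 TNF family ligands among the members were higher at the study thresholds in CREB-KO Tregs, and each call was lost when certain single arrays were left out. Cd40lg, the X-linked gene of CD40 ligand, was 10.60, 9.91 and 10.67 on the CREB-KO arrays and 9.75, 9.12 and 9.75 on the CREB-WT arrays. The genotypes did not overlap, and replicate 2 was the lowest of either group. The difference was 0.85 ± 0.27 (95% interval of the fold 1.14 to 2.85), and limma gave an unadjusted p of 0.0192 (adjusted p 0.846). The call ended without CREB-KO replicate 1 (0.75), CREB-KO replicate 3 (0.71) or CREB-WT replicate 2 (0.64). It also ended with the macrophage marker level as a covariate (0.83 ± 0.34, unadjusted limma p 0.0561). With the B cell marker level the difference was 1.01 ± 0.51 (unadjusted limma p 0.101), so the call ended through a wider SE and not a smaller difference. Under the methods' t-test the call ended at an unadjusted p of 0.0562 (adjusted p 0.904).

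Tnfsf8, the gene of CD30 ligand, had the largest difference of the 8 genes. It was 11.38, 10.50 and 11.72 on the CREB-KO arrays and 10.49, 9.67 and 10.33 on the CREB-WT arrays. The groups did not overlap, but the lowest CREB-KO array (10.496) and the highest CREB-WT array (10.490) were nearly level. The difference was 1.04 ± 0.37 (95% interval of the fold 1.11 to 3.79; unadjusted p 0.028, adjusted p 0.873 in limma). The call ended without CREB-KO replicate 1 (0.95), CREB-KO replicate 3 (0.78) or CREB-WT replicate 2 (0.79). The macrophage covariate (0.996 ± 0.46, unadjusted limma p 0.0790) ended it too. So did the B cell covariate (1.45 ± 0.66, unadjusted limma p 0.0751), where the difference grew and the SE widened. Under the methods' t-test the call ended as well (unadjusted p 0.0791).

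Cd40lg and Tnfsf8 were the most alike of all pairs of members over the 6 arrays, with a root mean square distance of 0.18 between their profiles after each was centred on its own mean. For both genes the arrays numbered 2 lay lowest in each genotype, by 0.48 and 0.70 under the CREB-KO mean and by 0.42 and 0.49 under the CREB-WT mean. The next closest pair, Cd28 and Cd226, lay at 0.24. This distance is not scaled to a gene's spread, so genes that vary little also come out close. On CREB-KO replicates 1 to 3, Cd28 deviated from its mean by -0.17, 0.20 and -0.03 and Cd226 by -0.08, -0.16 and 0.24.

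Tnfsf14, the gene of LIGHT, was 8.79, 9.37 and 9.94 on the CREB-KO arrays and 8.86, 8.69 and 8.005 on the CREB-WT arrays. CREB-KO replicate 1 lay below CREB-WT replicate 1, so the groups overlapped, and the order of the arrays was not that of Cd40lg or Tnfsf8. The difference was 0.85 ± 0.35 (95% interval of the fold 1.002 to 3.23), with an unadjusted p of 0.0496 in limma, just inside the limit (adjusted p 0.894). The call ended without CREB-KO replicate 2 (0.85), CREB-KO replicate 3 (0.56), CREB-WT replicate 2 (0.93) or CREB-WT replicate 3 (0.59). It ended also with the macrophage covariate (0.74) and without both arrays numbered 3 (0.30), while with the B cell covariate it held (1.62). It ended further with each array shifted to the same median (0.78) and under the methods' t-test (unadjusted p 0.115).

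**Figure D3:**
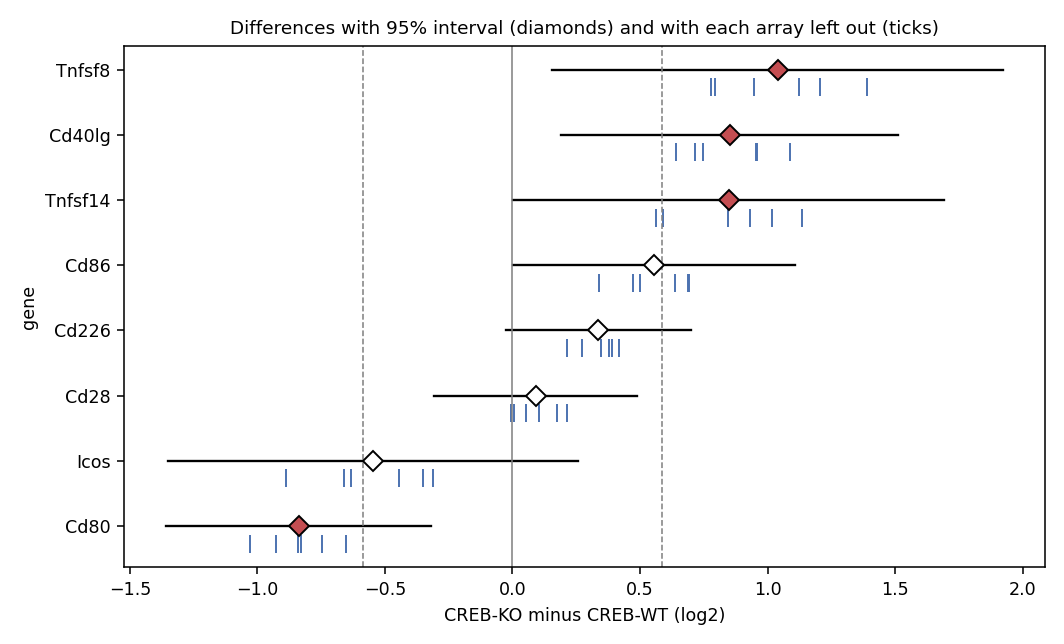
Difference between CREB-KO and CREB-WT (log2, x axis) for each gene (y axis), with its 95% interval; red diamonds are past the study thresholds, the dashed lines mark a 1.5-fold difference, and each blue tick is the difference with 1 array left out. All ticks of Cd80 lie beyond the dashed line, at -1.03 to -0.65, and those of Tnfsf14 reach down to 0.56.

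The binding partners of the members and the receptors that compete with them formed another list. Of its 14 measured genes, 2 passed the study thresholds upward and 0 downward, with a median difference of 0.04. Btla, an inhibitory receptor that binds HVEM, was 11.79, 12.08 and 12.12 on the CREB-KO arrays and 11.24, 11.19 and 11.46 on the CREB-WT arrays. The genotypes did not overlap, and the difference of 0.70 ± 0.15 (limma unadjusted p 0.00262, adjusted p 0.671) stayed past the study thresholds on leaving out each array (0.63 to 0.80). Its call ended with the macrophage marker level as a covariate (0.55, under the fold limit) and with that of B cells (0.49, unadjusted limma p 0.105). Cd160, the gene of another HVEM binder, was 7.68, 8.02 and 7.49 against 6.61, 7.30 and 7.32, a difference of 0.65 ± 0.25 (unadjusted p 0.0351) whose call ended without CREB-KO replicate 1 (0.68), CREB-KO replicate 2 (0.51) or CREB-WT replicate 1 (0.42). With the macrophage and B cell covariates the difference of Cd160 was 0.54 and 0.01, neither past the study thresholds. With Tnfsf14, 3 genes for HVEM binders were thus higher, a grouping made after their values were seen, while Tnfrsf14, the gene of HVEM itself, differed by 0.11 ± 0.15 (8.13 against 8.02). Cd40, the receptor of CD40 ligand, lay near the median cluster (4.41 against 4.66; difference -0.25 ± 0.16), and Tnfrsf8, the gene of CD30, differed by 0.06 ± 0.23. On the CD226 axis Pvr differed by 0.36 ± 0.14 (unadjusted p 0.0355 in limma), short of the fold limit, whereas Nectin2, low at 3.83 and 3.81, Tigit (0.27 ± 0.49) and Cd96 (-0.05 ± 0.16) were within the spread of their arrays.

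Among the other members of the B7-CD28 family, 1 of 9 (Btla) was higher and 0 were lower, with a median of 0.17. Pdcd1lg2 and Cd274, the genes of the PD-1 ligands, differed by 0.48 ± 0.14 and 0.35 ± 0.13 with non-overlapping groups, under the fold limit (unadjusted p 0.0131 and 0.0290 in limma). Ctla4 differed by 0.17 ± 0.20 and Pdcd1 by 0.39 ± 0.57. Icosl, which encodes the ICOS ligand of antigen-presenting cells, was 5.92 ± 0.28 (SD, n = 3) and 6.27 ± 0.92.

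Of 13 other TNF family ligands, 11 lay above 0, 1 was higher at the study thresholds and 0 were lower, and the median was 0.37. The list's mean relative to each gene's mean ran from 0.10 to 0.28 on the CREB-KO and from -0.23 to -0.09 on the CREB-WT arrays. Tnfsf9, the gene of the 4-1BB ligand, was 5.26, 6.04 and 6.83 against 3.92, 4.72 and 5.49, a difference of 1.33 ± 0.52 (unadjusted p 0.0403 in limma) with overlapping groups. Its call ended without CREB-KO replicate 2 (1.33), CREB-KO replicate 3 (0.94), CREB-WT replicate 1 (0.94) or CREB-WT replicate 2 (1.34). With the replicate number as a block the call held, at 1.33 ± 0.13 (unadjusted limma p 0.000207, adjusted p 0.789). With the macrophage covariate the difference was 0.57, just under the fold limit (unadjusted limma p 0.0162). With the B cell covariate it was 0.32 (unadjusted limma p 0.708), so the call ended with either covariate. Tnfsf11, the gene of RANK ligand, differed by 0.37 ± 0.14 and Tnfsf13b, the gene of BAFF, by 0.38 ± 0.12 at a level below the median cluster (4.37 against 3.997). Ltb, the highest of the list at 13.29 and 12.93, differed by 0.36 ± 0.32. Of 29 measured genes of co-stimulatory signalling, 0 were past the study thresholds in either direction, with differences from -0.40 to 0.31 and a median of -0.05. The smallest p-values were those of Akt2, a kinase downstream of PI3 kinase (0.31 ± 0.13, unadjusted p 0.0505), and Pik3r1, a regulatory subunit of that kinase (-0.25 ± 0.12, p 0.0824).

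**Figure D4:**
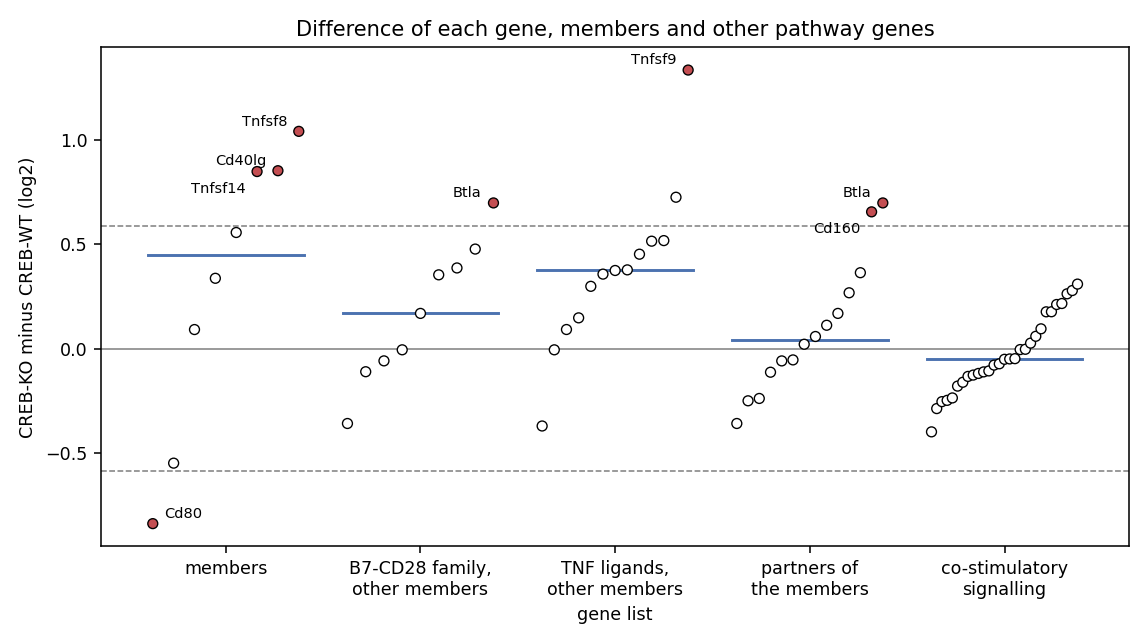
Difference between CREB-KO and CREB-WT (log2, y axis) of each measured gene in 5 lists (x axis); red points are past the study thresholds and named, blue lines are list medians, and dashed lines mark a 1.5-fold difference. The medians run from 0.45 for the members and 0.37 for other TNF ligands to -0.05 for co-stimulatory signalling.

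Several members lie beside related genes in RefSeq. Cd28, Ctla4 and Icos follow each other on chromosome 1, and their differences were 0.09, 0.17 and -0.55, none past the study thresholds; the other genes within 3 places of Cd28 or Icos ranged from -0.10 to 0.36. Tnfsf14 lies beside Cd70 and Tnfsf9 on chromosome 17, where the outer genes Tnfsf9 and Tnfsf14 were higher at the study thresholds and Cd70, listed here after its values were seen, differed by 0.09 ± 0.15 at a low level (3.69 against 3.60). Tnfsf15, next to Tnfsf8 on chromosome 4 and likewise singled out afterwards, differed by 0.51 ± 0.46. None of the 5 measured neighbours of Cd80, the 6 of Cd86 or the 6 of Cd40lg was past the study thresholds, with ranges of -0.27 to 0.11, -0.11 to 0.17 and -0.05 to 0.28.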

How the data were processed

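RNA of sorted splenic CD4+CD25+Nrp1+ Tregs was measured on 6 Affymetrix arrays. The deposited values are log2 expression values, 1 per transcript cluster and array, which the authors made with RMA (background correction, normalization between arrays, summary of probes); no source used here gives its version or the genome build of the array. Sources disagree about the platform: GEO's design text names the MTA array, the paper others. Groups and replicate numbers came from the sample titles. A difference of 1 is read as a doubling, and the number of arrays limits the precision.

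The genotypes were compared in limma 3.58.1 under R 4.3.3, with a model per cluster on the deposited values, eBayes at its defaults, two-sided tests and Benjamini-Hochberg adjustment over all 65956 clusters. Counts use a fold of 1.5 with an unadjusted p of 0.05, as in the methods. Errors of differences are SE, those of group values SD. Each array came from another animal, per the labels. The fit was tested on simulated data with 200 changed clusters. Genes were named through the platform annotation, where 30638 clusters have 1 symbol, 2176 several and 33142 none here; of lists, the highest cluster per gene was used. Named genes were all members, list genes past the study thresholds and the 2 with the smallest p per list. Marker genes with the highest level or past the thresholds and the nearest profiles (root mean square distance) were named too. Some exceptions are marked as seen first. Pvr, Nectin2, Tigit, Cd96, Cd40, Tnfrsf8, Tnfrsf14, Cd274, Pdcd1, Icosl and Ltb were also named outside these rules and carry no such mark. Cd4 and Il2ra, named to check cell identity, were picked after their values were seen. The members and lists were chosen with earlier results of these data known. Alternatives were each array left out, the replicate number as a block, quantile normalization, median centring, a trended robust prior, the methods' t-test, a level filter, 1 cluster per gene and array weights. Covariates and the removal of both arrays numbered 3 were added after seeing the data. Promoter sequences are from RefSeq (GRCm38.p6).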

Additional observations from a re-analysis of the deposited data

How the results depend on the processing

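Of the 8 members, Icos, Cd226, Cd80, Cd86, Cd40lg, Tnfsf8 and Tnfsf14 kept their direction under all 17 alternatives, 3 of them added after seeing the data; over all 136 member values, 100 kept direction and side of the study thresholds, 27 lost the call, 6 gained it and 3 changed sign. Those 3 belonged to Cd28: it ran from -0.0065 (without CREB-KO replicate 2) to 0.215 (without CREB-WT replicate 3) on leaving out 1 array, and was -0.0399 with the macrophage and -0.288 with the B cell marker covariate. The lost calls were 12 of 17 values for Tnfsf14, 7 each for Cd40lg and Tnfsf8, and 1 for Cd80. Cd28, Icos, Cd226 and Cd86 had no call to lose. Adjusted p-values of members were 0.722 or above under every alternative. Members higher at the study thresholds numbered 3; leaving out 1 array gave 0 to 3 (0 without CREB-KO replicate 3, 1 without either CREB-KO replicate 1 or, separately, CREB-WT replicate 2), the methods' t-test 0, either marker covariate 1 and the removal of both arrays numbered 3 gave 0. The 1 was Tnfsf14 without CREB-KO replicate 1 and with the B cell covariate, but Cd86, newly past, without CREB-WT replicate 2 and with the macrophage covariate, where the calls of Cd40lg, Tnfsf8 and Tnfsf14 all ended. Members lower numbered 1; leaving out 1 array gave 1 to 2, the macrophage covariate 2, the B cell covariate 0 and no arrays numbered 3 gave 2, Icos being the second gene. With each array shifted to one median, quantile normalization repeated, a trended prior or the level filter, the higher count was 2, as Tnfsf14 lost its call. Clusters past the study thresholds numbered 1067 higher and 480 lower; leaving out 1 array gave 969 to 1618 and 517 to 838, the methods' t-test 642 and 246, and 1 cluster per gene 276 and 201, where fewer features were tested. Without the arrays numbered 3 the higher count was 1661, and the lower count was 879 and 1598 with the macrophage and B cell covariates; the causes were not tested. Itgax turned to 0.15 with the B cell covariate. As the B cell marker level did not overlap between the genotypes, changes under this covariate do not separate its effect from that of genotype.

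Same-numbered arrays deviated from their group means with correlations of 0.22, 0.018 and 0.041 over all clusters. Differently numbered arrays were not compared in this way, so these values cannot decide whether the numbers pair the mice. The main fit held no block because the methods name none. The macrophage marker level fell from replicate 1 to 3 in both genotypes (0.60, -0.58 and -1.35 in CREB-KO, 1.17, 0.59 and -0.43 in CREB-WT). Cd40lg and Tnfsf8 were lowest in replicate 2 of both. What same-numbered arrays share was not tested. With the replicate block the higher count was 2 and the lower count 1; Cd40lg had an unadjusted p of 0.00156 and Tnfsf8 of 0.00237, Icos of 0.0252 under the fold limit, and Tnfsf14 lost its call (p 0.0954). With 3 arrays a group, the intervals of Cd226, Cd28 and Icos held 0.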

Other observations

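The genes whose profiles over the 6 arrays lay nearest to the members past the study thresholds were sought among 11194 named clusters above the median level, as a description without a test. A small distance to a member requires a similar difference between the genotypes, so the shared direction follows from the search. Nearest to Cd80 were Bicra, Cbl, Tspan32, Nanp and Hinfp, at root mean square distances of 0.09 to 0.16 and with differences of -0.84 to -0.59. The Cbl cluster of this set, for a ubiquitin ligase that dampens T cell receptor signalling, differed by -0.71 ± 0.16 and lost its call without CREB-KO replicate 1 (-0.57), while the brighter Cbl cluster differed by -0.40 ± 0.51, so the clusters of this gene differ in whether they pass. Nearest to Cd40lg were Setmar, Asf1b, Esp23, Parp3 and Bcl2a1d (0.15 to 0.20), and Setmar and Esp23 were also among the nearest to Tnfsf8, with Setbp1, Arrdc4 and Ell2 (0.21 to 0.28). Nearest to Tnfsf14 were Cxcl10, a chemokine of the interferon response, at 0.17, then Tm4sf5, Ccl3, another chemokine, Clip3 and Olfr676 (up to 0.26). Cxcl10 was 6.25, 6.54 and 7.26 on the CREB-KO arrays and 5.88, 5.67 and 5.31 on CREB-WT, with a difference of 1.06 ± 0.29.

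Among the other TNF ligands, Fasl, which encodes Fas ligand of the TNF family, had a difference of 0.72 ± 0.50 above the fold limit with overlapping groups (9.10, 7.79 and 7.33 against 6.80, 7.89 and 7.36; unadjusted limma p 0.195), and was singled out after its values were seen.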
